A study of Danio rerio with 30 samples.

Results

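The N-terminal fragments of 2 paralogous zebrafish transcription factors, creb3l1 and creb3l2, were set directly against each other in whole embryos at 8 hours post fertilization (hpf). In the creb3l1-N library, TL/AB embryos received 40 pg of creb3l1-N mRNA in an xbp1 crispant background, in which Cas9 protein and guide RNAs had been injected to mutate xbp1. In the creb3l2-N library, TL/AB embryos of the same xbp1 crispant background received 40 pg of creb3l2-N mRNA. In the mCherry library used as the common baseline, TL/AB xbp1 crispants received 40 pg of mRNA for nuclear mCherry. The atf6-N library, with 40 pg of atf6-N mRNA in xbp1 crispants, is given beside named genes where it helps to place them. A further mCherry library with 125 pg of mRNA had no xbp1 crispant label. A library with 40 pg of full-length creb3l2 mRNA enters the clustering of cells. At 12 hpf, 2 uninjected wild type libraries and 2 quadruple crispant libraries show how far libraries of 1 label differ. In the quadruple crispants xbp1, atf6, creb3l2 and creb3l1 were all targeted. Injection was at the 1-cell stage, and each library held about 30 pooled embryos. Each 8 hpf group has 1 library, so embryos cannot be told apart and no test between conditions is possible. The pair makes up 2 of the 30 libraries of the series, which asks how the transcription factors of the unfolded protein response govern secretory cells. It holds 4149 cells with creb3l1-N and 5126 cells with creb3l2-N. These are the barcodes with at least 1000 unique molecular identifiers (UMIs, 1 per captured mRNA molecule) and at most 10% mitochondrial UMIs.

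Proteins of the CREB3 family are bZIP transcription factors that are made as membrane proteins of the endoplasmic reticulum (ER). They travel to the Golgi, where site-1 and site-2 proteases cut off the N-terminal part, which then enters the nucleus and activates transcription. An N-terminal fragment supplied as mRNA therefore needs no cleavage. In mammals CREB3L1 (OASIS) is known from osteoblasts, where it acts on type I collagen, and CREB3L2 (BBF2H7) from chondrocytes, where it acts on ER export through SEC23A. Xbp1 and Atf6 are the other transcription factors of the ER stress response that the series manipulates.

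UMIs were summed over the cells of a library and expressed per 1000000 UMIs (CPM). The creb3l1-N sum was 73818331 UMIs and the creb3l2-N sum 97024372, with medians of 15310 and 14780 UMIs per cell, and the mCherry sum was 61234123. A ratio is creb3l1-N over creb3l2-N, with an exact binomial 95% interval that covers counting error only and not the spread between embryo pools or library preparations. A gene entered the comparison with at least 50 UMIs over the pair, which left 14871 of 26847 symbols apart from the injected genes, and a difference was counted from 2-fold on. Where a library had 0 UMIs, the ratio is a bound computed with a floor of 3 UMIs for that library. The libraries shared 6 cell barcodes. Because the tissue was dissociated whole, a difference in a summed level can come from more cells with a transcript or from more transcript per cell, and both are given where the counts allow.

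The injected mRNAs were found in the libraries that should hold them. For creb3l1 (ENSDARG00000015793), 17527 UMIs were counted in the creb3l1-N library, 291 in the creb3l2-N library and 376 in the mCherry library. These are 237 CPM with creb3l1-N, 2.999 CPM with creb3l2-N and 6.14 CPM with mCherry, and the ratio was 79.2 (70.5 to 89.2). For creb3l2 (ENSDARG00000063563), 639 UMIs were counted with creb3l1-N, 38527 with creb3l2-N and 867 with mCherry. These are 8.66 CPM, 397 CPM and 14.2 CPM, with a ratio of 0.0218 (0.0201 to 0.0236). Each paralog's own transcript was thus below the mCherry level where the other had been injected. The injected transcript was seen in fewer cells with creb3l1-N than with creb3l2-N. At least 1 creb3l1 UMI was present in 53.2% of creb3l1-N cells, against 3.04% of creb3l2-N cells and 5.57% of mCherry cells. At least 1 creb3l2 UMI was present in 10.8% of creb3l1-N cells and 72.5% of creb3l2-N cells, against 16.1% of mCherry cells. Cells with at least 5000 UMIs were also thinned to 5000 UMIs each. The injected transcript was then present in 42.7% of 2708 creb3l1-N cells and 61.9% of 3703 creb3l2-N cells. The 1441 creb3l1-N and 1423 creb3l2-N cells under that depth were left out. The counts do not separate injected from endogenous transcripts, and how well each mRNA is captured is not known, so the 2 levels are not doses on 1 scale.

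Over all cells, transcripts of the other factors of the response were close between the paralogs and above mCherry. The xbp1 transcript stood at 211 CPM with creb3l1-N, 223 CPM with creb3l2-N and 129 CPM with mCherry (ratio of the paralogs 0.943, 0.924 to 0.963). By tissue class, described below, xbp1 differed more. The hatching gland class had 1364 CPM with creb3l1-N, 2086 CPM with creb3l2-N and 1660 CPM with mCherry. The notochord class had 878, 1192 and 943 CPM in the same order. In the other named classes compared, xbp1 was above mCherry with both paralogs. The paralog cluster, an unnamed cluster described below, had 282 CPM with creb3l1-N and 144 CPM with creb3l2-N. The atf6 transcript stood at 83.4 CPM with creb3l1-N, 103 CPM with creb3l2-N and 48.3 CPM with mCherry (ratio 0.812, 0.786 to 0.838). In the list of bZIP factors and their activators, 5 genes had enough UMIs and none was past 2-fold in the ratio.

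Genes of the secretory pathway were high with both paralogs, and few of them were past 2-fold between the paralogs. Over 9 lists joined, from translocation into the ER to collagen-modifying enzymes, 113 of 193 genes were at least 2-fold over mCherry with creb3l1-N and 120 of 193 with creb3l2-N. Of all genes, 12.6% with creb3l1-N and 14.2% with creb3l2-N were at least 2-fold over mCherry, and 2.32% and 6.07% at least 2-fold below it. The median log2 difference from mCherry in the joined list was 1.24 with creb3l1-N and 1.47 with creb3l2-N. Between the paralogs the median log2 ratio of these genes was -0.15, against -0.02 over all genes. Of the 193 ratios 55 were above 1, against 7167 of 14871 over all genes, so most secretory genes leaned to creb3l2-N. Past 2-fold between the paralogs, 1 gene of the 193 was higher with creb3l1-N and 4 were lower. Over all genes these shares were 5.14% and 3.44%, so the lower count was near the background. The background depends on the UMI minimum and the genes were not matched for level, so no more is read from these counts.

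**Figure D1:**
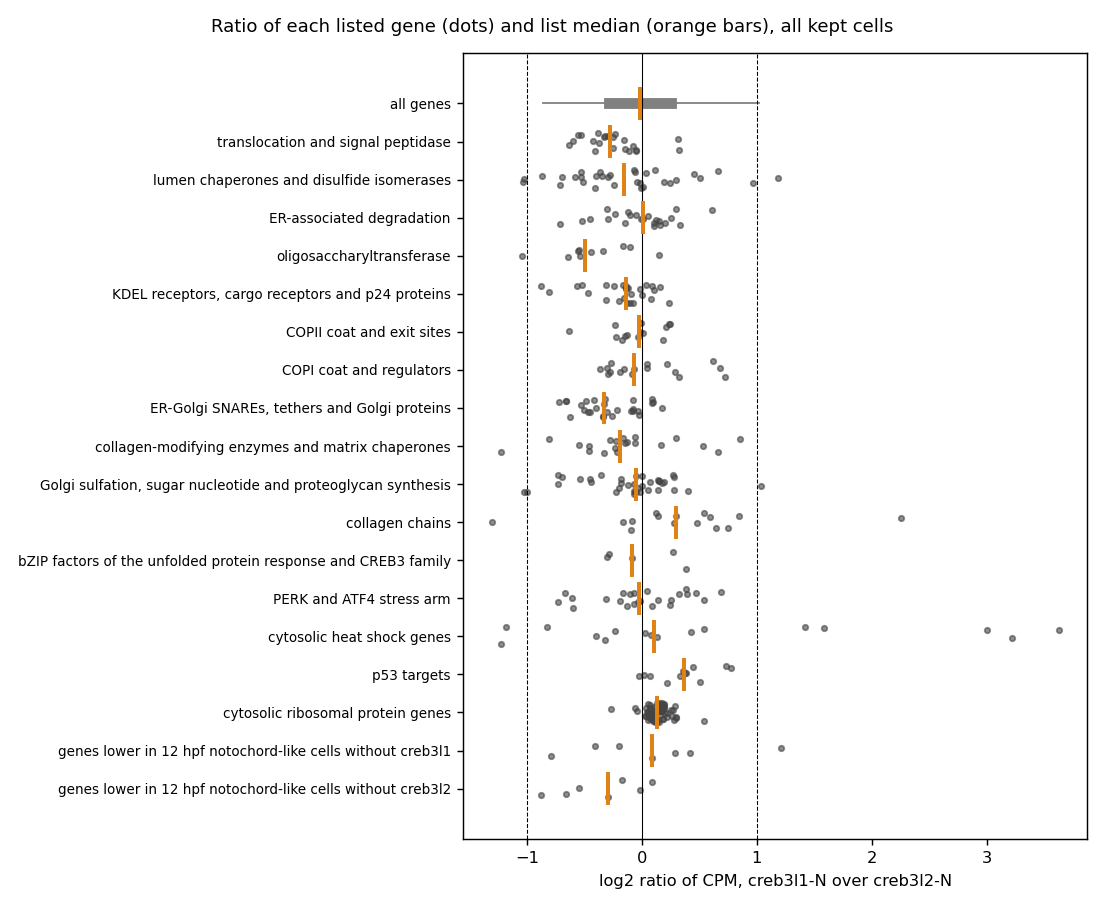
Each dot is a gene of the named list at its log2 ratio of CPM, creb3l1-N over creb3l2-N; orange bars are list medians, and for all genes the thick line spans the quartiles and the thin line the 5th to 95th percentile. Dashed lines mark 2-fold. The secretory lists lie near or slightly left of 0, with medians from -0.49 for the oligosaccharyltransferase to 0.01 for ER-associated degradation, and single heat shock and collagen genes lie far to the right.

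The translocon and its signal peptidase bring nascent secretory proteins into the ER. In this list 2 of 22 ratios were above 1. The channel subunit sec61b had 2503 CPM with creb3l1-N and 2644 CPM with creb3l2-N, against 776 CPM with mCherry. Its partner sec61g went the other way, with 3835 CPM in creb3l1-N cells, 3063 CPM in creb3l2-N cells and 872 CPM with mCherry (ratio 1.25, 1.25 to 1.26). The oligosaccharyltransferase, which adds N-glycans in the lumen, had the lowest list median, with a log2 ratio of -0.49 and 1 of 10 ratios above 1. Its subunit ddost stood at 71.9 CPM with creb3l1-N, 148 CPM with creb3l2-N and 25.2 CPM with mCherry (ratio 0.486, 0.471 to 0.502).

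Lumen chaperones and disulfide isomerases fold cargo. Of 32 measured, 1 was at least 2-fold higher and 2 at least 2-fold lower with creb3l1-N, against 5.14% and 3.44% of all genes. The higher one was creld1b, with 1.504 CPM in creb3l1-N cells and 0.660 CPM in creb3l2-N cells on 111 and 64 UMIs, against 113 CPM in the atf6-N library and 0.343 CPM with mCherry. The lower ones were manf, a small ER stress protein that is secreted, and dnajc3a, an Hsp40 cofactor of BiP. manf had 24.8 CPM with creb3l1-N and 51.0 CPM with creb3l2-N, with 683 CPM in the atf6-N library and 11.5 CPM with mCherry. dnajc3a had 1.95 CPM with creb3l1-N and 3.97 CPM with creb3l2-N, with 64.4 CPM in the atf6-N library and 0.686 CPM with mCherry. For these 3 genes the level with atf6-N was far above both paralogs. The peptidyl-prolyl isomerase fkbp9 was close between the paralogs and far above mCherry, with 773 CPM with creb3l1-N, 755 CPM with creb3l2-N and 14.99 CPM with mCherry.

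In ER-associated degradation, which removes misfolded proteins, the median log2 ratio was 0.01 over 23 genes and none was past 2-fold. The same held for 27 KDEL receptors, cargo receptors and p24 proteins, 14 genes of the COPII coat that leaves the ER, 17 of the COPI coat that returns to it, and 28 SNAREs, tethers and Golgi proteins: no gene of these lists was past 2-fold between the paralogs. Within the COPI coat, copb2 leaned to creb3l1-N with 536 CPM, against 334 CPM with creb3l2-N and 58.7 CPM with mCherry (ratio 1.60, 1.58 to 1.63). Its partner copb1 did not, with 314 CPM in creb3l1-N cells, 333 CPM in creb3l2-N cells and 63.9 CPM with mCherry.

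Of 20 collagen-modifying enzymes and matrix chaperones, 12 were at least 2-fold over mCherry with creb3l1-N and 14 with creb3l2-N. Over all genes these shares were 12.6% with creb3l1-N and 14.2% with creb3l2-N. The collagen chaperone serpinh1b (Hsp47) stood at 170 CPM with creb3l1-N, 397 CPM with creb3l2-N and 108 CPM with mCherry (ratio 0.427, 0.418 to 0.436), and at 347 CPM with atf6-N. The prolyl hydroxylase p3h1 stood at 354 CPM with creb3l1-N, 413 CPM with creb3l2-N and 35.8 CPM with mCherry. In Golgi sulfation, sugar nucleotide and proteoglycan synthesis, 37 genes were measured. Of these, 1 was at least 2-fold higher and 2 at least 2-fold lower with creb3l1-N, against 5.14% and 3.44% of all genes. The higher one was gale, the UDP-galactose epimerase, with 73.5 CPM in creb3l1-N cells, 35.8 CPM in creb3l2-N cells and 26.4 CPM with mCherry (ratio 2.05, 1.96 to 2.14). The lower ones were ext1b, a heparan sulfate polymerase, with 1.64 CPM in creb3l1-N cells and 3.34 CPM in creb3l2-N cells, and uap1l1, with 1.58 and 3.17 CPM in the same order. The sulfate donor synthase papss2b was close between the paralogs, with 139 CPM in creb3l1-N cells, 158 CPM in creb3l2-N cells and 3.51 CPM with mCherry.

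Collagen chains split by gene. col1a1a, a chain of type I collagen, had 4407 UMIs (59.7 CPM) in creb3l1-N cells and 1216 UMIs (12.5 CPM) in creb3l2-N cells, against 0.196 CPM with mCherry. Its ratio was 4.76 (4.47 to 5.08). col1a2, the chain it pairs with in the type I trimer, was nearly even, with 36.1 CPM, 29.8 CPM and 0.376 CPM in the same order (ratio 1.21, 1.15 to 1.28). col2a1a, a notochord and cartilage chain, had 0.271 CPM with creb3l1-N and 0.670 CPM with creb3l2-N on 20 and 65 UMIs, against 0.441 CPM with mCherry. Of the 15 chains measured, 11 had ratios above 1, against 7167 of 14871 over all genes, and 1 was past 2-fold in each direction. Of all genes, 5.14% were at least 2-fold higher and 3.44% at least 2-fold lower with creb3l1-N.

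Genes that were lower at 12 hpf in notochord-like cells lacking creb3l1 or creb3l2 form 2 lists that were chosen from other libraries of this series. Of those tied to creb3l1 loss, 7 had enough UMIs, and fhl1b did not. zgc:92630 had 54.9 CPM in creb3l1-N cells and 23.8 CPM in creb3l2-N cells, against 806 CPM with atf6-N and 0.196 CPM with mCherry (ratio 2.31, 2.19 to 2.43). The others were within 2-fold: ratios were 1.34 for cdo1, 1.22 for arf5, 1.06 for kdelr2a, 0.870 for kdelr2b, 0.755 for zgc:163030 and 0.579 for tmem88b. Of those tied to creb3l2 loss, all 7 were at least 2-fold over mCherry with each paralog, against 12.6% of all genes with creb3l1-N and 14.2% with creb3l2-N. All of them but zgc:153675 also belong to the 9 secretory lists, so this largely restates the secretory result. Of the 193 secretory genes, 113 with creb3l1-N and 120 with creb3l2-N were 2-fold over mCherry. In the creb3l1 list kdelr2a, kdelr2b and arf5 are shared in the same way. The lumen calcium-binding protein rcn3 had 581 CPM with creb3l1-N, 846 CPM with creb3l2-N and 1.68 CPM with mCherry. The KDEL receptor kdelr3 had 241 CPM with creb3l1-N, 244 CPM with creb3l2-N and 13.4 CPM with mCherry. The cargo receptor lman1 had 47.1 CPM with creb3l1-N, 86.4 CPM with creb3l2-N and 16.6 CPM with mCherry (ratio 0.545, 0.523 to 0.567). For the remaining members the ratios were 1.06 for yif1a, 0.889 for zgc:153675, 0.813 for the COPI subunit copz2 and 0.634 for golt1ba. No gene of the creb3l2 list was past 2-fold between the paralogs.

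Cytosolic heat shock genes, which respond to unfolded proteins outside the ER, split by gene. Of 16 genes, 5 were at least 2-fold higher and 2 at least 2-fold lower with creb3l1-N, against 5.14% and 3.44% of all genes, and 4 of the 5 are hsp70 copies. hsp70.3, an inducible Hsp70, had 50.6 CPM with creb3l1-N and 5.43 CPM with creb3l2-N, with 64.0 CPM in the atf6-N library and 1.42 CPM with mCherry (ratio 9.32, 8.51 to 10.2). hsp90aa1.2, a cytosolic Hsp90, had 116 CPM with creb3l1-N and 38.6 CPM with creb3l2-N, with 128 CPM in the atf6-N library and 11.8 CPM with mCherry (ratio 3.01, 2.89 to 3.12). hsp70l, hsp70.2 and hsp70.1 had ratios of 12.4, 8.00 and 2.68 on fewer UMIs, and reads of these near-identical copies may have been assigned among one another. The lower genes were dnajb1a, with 3.60 CPM in creb3l1-N cells and 8.19 CPM in creb3l2-N cells, and serpinh1b. This list shares serpinh1b with the matrix chaperones, and its product works in the ER and not in the cytosol. The constitutive hspa8 was level, at 4013 CPM with creb3l1-N and 3936 CPM with creb3l2-N. These genes also differed between the mCherry libraries: hsp90aa1.2 stood at 11.8 CPM with 40 pg in xbp1 crispants and 32.0 CPM with 125 pg.

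Other stress lists showed no gene past 2-fold. The PERK and ATF4 arm had a median log2 ratio of -0.02 over 24 genes, and atf4a stood at 511 CPM with creb3l1-N, 523 CPM with creb3l2-N and 318 CPM with mCherry. The p53 targets had a median of 0.37 over 12 genes, with 11 ratios above 1, and their medians against mCherry were -0.61 with creb3l1-N and -0.91 with creb3l2-N. For instance rps27l stood at 495 CPM with creb3l1-N, 386 CPM with creb3l2-N and 718 CPM with mCherry. Ribosomal protein genes had 66 of 69 ratios above 1 and a median of 0.13. Over all genes, 7167 of 14871 ratios were above 1.

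Across all genes, 764 (5.14%) were at least 2-fold higher and 511 (3.44%) at least 2-fold lower with creb3l1-N. Libraries with 1 label also differed by about this much. Between the 2 uninjected wild type libraries at 12 hpf, 4.12% of genes were at least 2-fold higher and 2.75% at least 2-fold lower, and between the 2 quadruple crispant libraries at 12 hpf, in which xbp1, atf6, creb3l2 and creb3l1 were all targeted, 3.73% and 1.58%. Between the mCherry library in xbp1 crispants and that with 125 pg, which differ in genotype and dose, the shares were 4.98% and 3.06%. At 3-fold the pair had 2.31% higher and 0.874% lower, against 1.96% and 0.693% in the mCherry pair, 1.39% and 0.983% in the wild type pair and 0.698% and 0.338% in the quadruple pair. At 8-fold the pair had 0.639% higher and 0.141% lower, against 0.513% and 0.121% in the mCherry pair, 0.258% and 0.328% in the wild type pair and 0.0288% and 0.0864% in the quadruple pair. The number of genes past 2-fold is therefore near the background and is not by itself a difference between the paralogs. Tissue marker lists differed too. The 7 non-neural ectoderm markers summed to 685 CPM with creb3l1-N, 928 CPM with creb3l2-N and 646 CPM with mCherry, with 0 of 7 ratios above 1, and 8 ventral and lateral mesoderm markers to 879, 1318 and 1207 CPM in the same order. Their part in the counts was not tested. Just inside 2-fold lay smpd2a and zgc:152863 with ratios of 2.00 on 35 and 23 UMIs each, and just outside it tmem150ab with 1.998 on 225 and 148 UMIs.

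The mCherry library with 40 pg places the 764 genes higher with creb3l1-N. Of these, 409 were at least 2-fold over mCherry with creb3l1-N, and 206 of the 409 were not 2-fold over it with creb3l2-N. Of the 206, 23 were also at least 2-fold below mCherry with creb3l2-N. Another 252 were not raised with creb3l1-N but at least 2-fold below mCherry with creb3l2-N, and 159 of those were also 2-fold below mCherry with atf6-N, as were 3.53% of all genes. Of the 511 genes higher with creb3l2-N, 329 were at least 2-fold over mCherry with creb3l2-N. Of these, 242 were not raised with creb3l1-N, and 156 of the 242 were also at least 2-fold over mCherry with atf6-N, as were 12.8% of all genes. The level with atf6-N was nearer to that with creb3l2-N for 362 of the 511 genes and for 595 of the 764. So for most genes past 2-fold the atf6-N library sided with the creb3l2-N library. The mCherry level was nearer to that with creb3l2-N for 440 of the 764 genes and nearer to that with creb3l1-N for 407 of the 511. The genes were chosen for being far apart between the paralogs, and how far that choice sets which side another library takes was not tested. These comparisons use the same mCherry library.

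The 15 genes in each direction whose interval bound lay farthest from 1 fell into these kinds. Some stood far above mCherry with creb3l1-N. ins (ENSDARG00000035350), which encodes insulin, had 3159 UMIs (42.8 CPM) in creb3l1-N cells and 0 UMIs in creb3l2-N cells, against 0.539 CPM with mCherry and 0.0147 CPM with atf6-N. That is at least 1384-fold higher with creb3l1-N than with creb3l2-N, and 79.4-fold over mCherry. The 1384-fold bound also holds a drop below mCherry on the other side. Relative to mCherry, ins was at most 0.0574 with creb3l2-N and 0.0272 with atf6-N. The part of embryo stock in this was not tested. It was carried by 300 cells, or 7.23%, with up to 146 UMIs in 1 cell, against 0 of 5126 creb3l2-N cells. In the mCherry library 33 cells held ins, each with 1 UMI.

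crx (ENSDARG00000011989), a homeodomain factor of photoreceptors, had 28.0 CPM with creb3l1-N and 0.721 CPM with creb3l2-N, and 0 UMIs were counted with atf6-N or mCherry. Its ratio was 38.8 (30.6 to 49.9), and it was present in 9.30% of creb3l1-N cells and 0.897% of creb3l2-N cells. nefmb (ENSDARG00000043697), a neurofilament protein, had 22.7 CPM with creb3l1-N, 0.794 CPM with creb3l2-N and 0.0980 CPM with mCherry (ratio 28.6, 22.7 to 36.4). Both crx and nefmb were thus above mCherry with either paralog. The tetraspanin gene tspan35 had 13.9 CPM with creb3l1-N, 0.186 CPM with creb3l2-N and 0.131 CPM with mCherry (ratio 74.99, 47.2 to 127). The netrin gene ntn1b, an axon guidance cue, had 5.31 CPM with creb3l1-N, 0 UMIs with creb3l2-N and 0.637 CPM with mCherry. With atf6-N it had 0.0147 CPM, so that it too was below mCherry with creb3l2-N and atf6-N. The intermediate filament gene synm and the transcription factor genes gfi1aa, tlx3b and hoxa13b lay between 1.34 and 2.75 CPM with creb3l1-N and had 3 UMIs or fewer with creb3l2-N.

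Other genes of the 15 did not stand above mCherry with creb3l1-N but were low with creb3l2-N and atf6-N. si:ch1073-190k2.1 had 127 CPM with creb3l1-N, 2.19 CPM with creb3l2-N, 4.28 CPM with atf6-N and 131 CPM with mCherry. si:dkey-9c18.3 had 24.1 CPM with creb3l1-N, 0.526 CPM with creb3l2-N, 0.279 CPM with atf6-N and 25.7 CPM with mCherry. quo had 15.2 CPM, 0.309 CPM, 0.103 CPM and 11.6 CPM in the same order. The transporter gene slc13a5b had 0.948 CPM with creb3l1-N, 0 UMIs with creb3l2-N or atf6-N and 1.01 CPM with mCherry. For these genes the creb3l1-N level was close to that with mCherry, and the creb3l2-N level to that with atf6-N. The mCherry library with 125 pg lay between, with si:ch1073-190k2.1 at 83.4 CPM and quo at 6.25 CPM. The transporter gene slc5a2 and si:dkey-4i23.5 lay between these kinds, with 2.61 and 5.53 CPM with creb3l1-N against 0.702 and 2.42 CPM with mCherry.

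**Figure D2:**
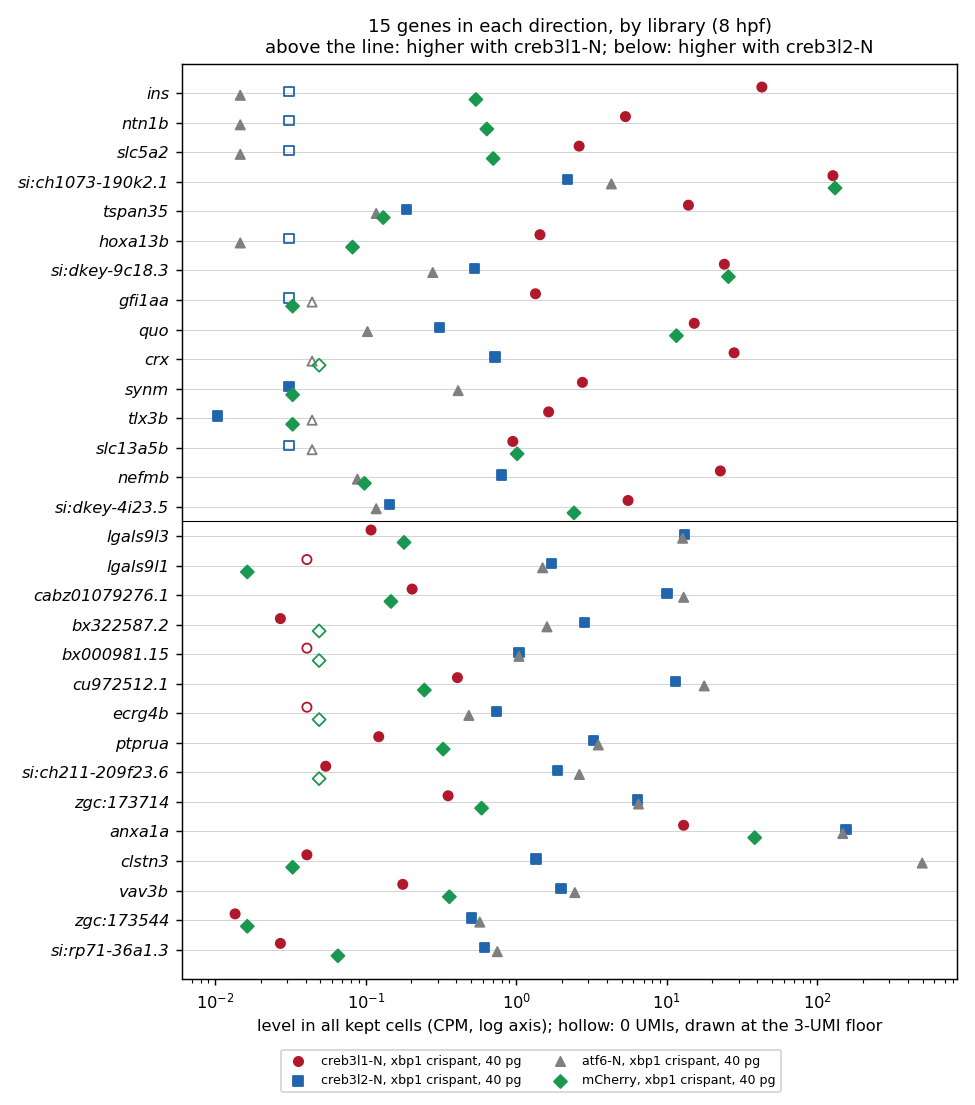
Levels in CPM (log axis) of the 15 genes in each direction whose 95% interval bound lies farthest from 1, in the creb3l1-N, creb3l2-N, atf6-N and mCherry 40 pg libraries; hollow symbols mark 0 UMIs. Below the line, the creb3l2-N and atf6-N symbols lie together on the right for all genes but clstn3, and the creb3l1-N and mCherry symbols together on the left.

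All 15 genes highest for creb3l2-N were also higher with atf6-N than with creb3l1-N or mCherry. lgals9l3 (ENSDARG00000041060), a galectin gene, had 8 UMIs (0.108 CPM) in creb3l1-N cells and 1274 UMIs (13.1 CPM) in creb3l2-N cells. It had 12.7 CPM with atf6-N and 0.180 CPM with mCherry, and its ratio was 0.00825 (0.00356 to 0.0163). The related lgals9l1 had 0 UMIs with creb3l1-N and 1.72 CPM with creb3l2-N, with 1.496 CPM in the atf6-N library. anxa1a (ENSDARG00000026726), an annexin that is also a periderm marker, had 12.9 CPM with creb3l1-N, 155 CPM with creb3l2-N, 147 CPM with atf6-N and 38.4 CPM with mCherry (ratio 0.0835, 0.0781 to 0.0892). It was present in 6.05% of creb3l1-N cells and 45.9% of creb3l2-N cells, against 13.8% of mCherry cells. The other 10 periderm markers were within 2-fold, and the summed level of the list was 1193 CPM with creb3l1-N, 1161 CPM with creb3l2-N and 1713 CPM with mCherry. The receptor phosphatase gene ptprua had 0.122 CPM with creb3l1-N, 3.25 CPM with creb3l2-N and 0.327 CPM with mCherry. clstn3, a synaptic calsyntenin gene, differed from the rest, with 0.0406 CPM with creb3l1-N, 1.35 CPM with creb3l2-N, 497 CPM with atf6-N and 0.0327 CPM with mCherry. The others, several known by clone names such as cabz01079276.1, cu972512.1 and bx322587.2, ranged from 0.505 to 11.4 CPM with creb3l2-N and were at or under 0.406 CPM with creb3l1-N. Several of these genes also differed between the mCherry libraries. cu972512.1 had 0.245 CPM with mCherry at 40 pg and 20.2 CPM with mCherry at 125 pg, above the 11.4 CPM with creb3l2-N. cabz01079276.1 had 0.147 and 5.80 CPM, and lgals9l3 0.180 and 2.30 CPM, in the same order. The labels name no clutch, so embryo stock and injected mRNA cannot be told apart for such genes.

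Within a library, the cells differed in how much injected mRNA they held. Cells with at least 5000 UMIs were placed in bands by their count after thinning to 5000 UMIs, and shallower cells were left out. Levels within a band are CPM of the unthinned counts. Cells with 0, 1, 2 to 3 and 4 or more UMIs of the injected transcript made up 57.3%, 18.7%, 14.6% and 9.34% of the banded creb3l1-N cells. They made up 38.1%, 24.1%, 21.7% and 16.0% of the banded creb3l2-N cells. The secretory share, which is the share of UMIs in the 9 joined lists, was 2.40%, 4.16%, 5.28% and 6.01% over these bands with creb3l1-N. With creb3l2-N it was 2.77%, 3.83%, 4.74% and 5.36%. In every band with injected mRNA the share was higher with creb3l1-N, and in the band with none it was lower. Cells without the transcript after thinning still held it at 50.3 CPM with creb3l1-N and 85.2 CPM with creb3l2-N.

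**Figure D3:**
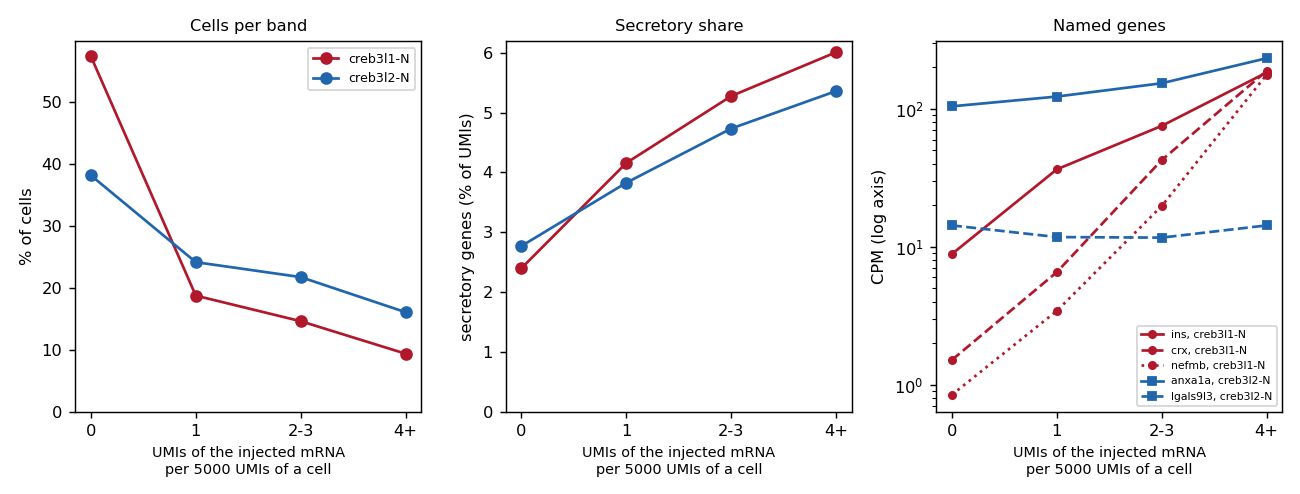
Share of cells, secretory share of UMIs and levels of named genes (CPM, log axis) over bands of the injected transcript. Only cells with at least 5000 UMIs were banded, after thinning to 5000 UMIs. Red is creb3l1-N and blue creb3l2-N. The secretory share climbs to 6.01% with creb3l1-N and 5.36% with creb3l2-N, ins, crx and nefmb climb to between 177 and 189 CPM with creb3l1-N, and lgals9l3 lies flat between 11.7 and 14.3 CPM with creb3l2-N.

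Single genes climbed steeply over the bands with creb3l1-N. Over the 4 bands of creb3l1 UMIs, ins had 8.87, 36.5, 75.4 and 184 CPM in creb3l1-N cells. crx had 1.51, 6.56, 42.6 and 189 CPM, and nefmb 0.846, 3.43, 19.8 and 177 CPM. Over the bands of creb3l2 UMIs in creb3l2-N cells, crx had 0.106, 0.0501, 0.217 and 3.38 CPM. nefmb had 0.0793, 0.3005, 0.163 and 3.60 CPM there. Both thus also rose in the top band with creb3l2-N, to lower levels, while ins had 0 UMIs in each band. lgals9l3 was flat over the bands of creb3l2 UMIs, with 14.3, 11.8, 11.7 and 14.3 CPM in creb3l2-N cells. anxa1a climbed over these bands, with 104, 123, 154 and 233 CPM.

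Cells with 4 or more UMIs of the injected transcript after thinning were then set against cells with none after thinning, within each library. There were 253 such rich cells with creb3l1-N and 594 with creb3l2-N. Of the genes at least 2-fold higher with creb3l1-N, 359 of 538 (66.7%) were at least 2-fold higher in creb3l1-rich cells, against 19.8% of all genes. Of the genes at least 2-fold higher with creb3l2-N, 106 of 359 (29.5%) were at least 2-fold higher in creb3l2-rich cells, against 13.7% of all genes. The reading across libraries was similar: of the genes at least 2-fold higher with creb3l1-N, 165 of 306 (53.9%) were also at least 2-fold higher in the creb3l2-rich cells of the creb3l2-N library, and of those higher with creb3l2-N, 54 of 196 (27.6%) were at least 2-fold higher in creb3l1-rich cells. Among all genes, 28.6% were at least 2-fold lower in creb3l1-rich cells and 16.0% in creb3l2-rich cells. Genes past 2-fold in the ratio and at least 4-fold higher in the rich cells of the same library numbered 294 of 389 for creb3l1-N, against 10.9% of all genes in that library, and 47 of 220 for creb3l2-N, against 6.22% of all genes. These 4-fold counts take only genes that also had at least 50 UMIs over the rich cells of the 2 libraries. A gene can pass that filter through the library where it is high, so these shares are description and not support for a preference. Of the creb3l1-rich cells 76.7%, and of the creb3l2-rich cells 30.5%, lay in 1 unnamed cluster described with the tissue classes, and the part of cell type in these folds was not tested. The 2-fold counts take genes with at least 50 UMIs over the rich cells and the cells with none of a library. The genes were also picked from library sums that hold these same cells. The 2-fold shares are therefore description as well, and not support for a preference.

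Between rich cells of the 2 libraries, 9.74% of 10226 genes were at least 2-fold higher and 12.4% at least 2-fold lower with creb3l1-N. Among the 294, the lens and midbrain factor pitx3 had 107 CPM in creb3l1-rich and 2.69 CPM in creb3l2-rich cells. onecut1, a factor of liver, pancreas and neurons, had 173 CPM in creb3l1-rich and 5.66 CPM in creb3l2-rich cells. pou4f2, a retinal ganglion cell factor, had 20.2 and 0.343 CPM in the same order. igfbp1a, a secreted binding protein of insulin-like growth factors, had 811 CPM in creb3l1-rich and 34.3 CPM in creb3l2-rich cells. The growth factor gene fgf4 had 12.8 CPM in creb3l1-rich and 0.114 CPM in creb3l2-rich cells, and the matrix Gla protein gene mgp had 87.4 and 2.40 CPM. Among the 47, the galanin receptor gene galr1b had 0.134 CPM in creb3l1-rich and 8.35 CPM in creb3l2-rich cells. The peptide transporter gene tap1 had 1.34 CPM in creb3l1-rich and 7.84 CPM in creb3l2-rich cells, and the water channel gene aqp11 had 5.51 and 21.9 CPM. col1a1a had 194 CPM in creb3l1-rich and 44.1 CPM in creb3l2-rich cells. In cells with none after thinning, which still held some injected transcript, it had 16.7 CPM with creb3l1-N and 2.11 CPM with creb3l2-N. It was thus higher in the rich cells of either library, 11.6-fold with creb3l1-N and 20.9-fold with creb3l2-N. gale had 178 CPM in creb3l1-rich and 52.5 CPM in creb3l2-rich cells. serpinh1b was not higher in creb3l1-rich cells, with 117 CPM there and 140 CPM in creb3l1-N cells with none after thinning. It had 409 CPM in creb3l2-rich cells and 339 CPM in creb3l2-N cells with none after thinning. These genes were taken after their values were seen.

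Tissue classes came from clusters of 6 libraries at 8 hpf (creb3l1-N, creb3l2-N, atf6-N, full-length creb3l2 and mCherry at 40 and 125 pg). Genes past 2-fold between any of creb3l1-N, creb3l2-N and mCherry at 40 pg were left out of the clustering. Genes changed only with atf6-N or full-length creb3l2 were not removed on that ground. Clusters of 787 and 629 cells held atf6-N cells only, and a cluster of 52 cells held full-length creb3l2 cells only. A cluster took a name where more than 50% of a marker list was at least 2-fold over the other cells and at least 2 of its markers were among the 10 leading genes, a rule set after clusters had been seen. Of 26 clusters, 12 took a name, and 9 named classes were compared. Germ cells, with 38 creb3l1-N and 15 creb3l2-N cells, were left out by choice and not by a cell minimum. Many cells lay in unnamed clusters outside the comparison. The largest held 12.15% of creb3l1-N and 10.28% of creb3l2-N cells. Another, with presomitic markers such as tbx6 and msgn1 at least 2-fold over the other cells, held 177 creb3l1-N and 199 creb3l2-N cells. Names describe marker patterns in whole embryos. The hatching gland and anterior prechordal plate class had klf17, a hatching gland factor, at 1347 CPM with creb3l1-N, 1299 CPM with creb3l2-N and 1444 CPM with mCherry, while the hatching enzyme gene he1.1 had 4 UMIs, 0 UMIs and 0 UMIs there. In the notochord and chordamesoderm class, noto, a notochord homeobox factor, had 1276 CPM with creb3l1-N, 1122 CPM with creb3l2-N and 1679 CPM with mCherry.

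The secretory share was lower with creb3l1-N than with creb3l2-N in each of the 9 named classes. These classes leave out the paralog cluster, which held 76.7% of the creb3l1-rich and 30.5% of the creb3l2-rich cells. How far this sets the sign in the classes was not tested. In the hatching gland class the secretory share was 3.19% of UMIs with creb3l1-N (61 cells), 5.53% with creb3l2-N (54 cells) and 1.47% with mCherry (49 cells). Here 51 of 135 secretory genes were at least 2-fold lower with creb3l1-N and 1 was at least 2-fold higher, against 9.8% lower and 5.08% higher among all genes of this class, with a median log2 ratio of -0.89. The lumen chaperones had a median of -1.33, the collagen-modifying enzymes one of -1.16 and the COPII coat one of -0.63. Of the genes tied to creb3l2 loss at 12 hpf, most of which belong to the secretory lists, 5 of 6 were at least 2-fold lower with creb3l1-N in this class. The cells differed in depth too, with medians of 8874 UMIs with creb3l1-N, 27680 UMIs with creb3l2-N and 23610 UMIs with mCherry, and the part of depth was not tested.

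The other classes differed by less. In the endoderm class the secretory share was 2.43% with creb3l1-N (35 cells), 3.77% with creb3l2-N (39 cells) and 1.13% with mCherry (35 cells), and 29 of 119 secretory genes were at least 2-fold lower, against 5.51% lower and 2.07% higher among all genes there. Depth differed here as well, with medians of 8788 UMIs with creb3l1-N and 24870 UMIs with creb3l2-N. In the notochord class the share was 4.35% with creb3l1-N (182 cells), 4.81% with creb3l2-N (150 cells) and 1.42% with mCherry. There 10 of 168 secretory genes were at least 2-fold lower and 1 at least 2-fold higher, against 4.6% and 2.5% of all genes.

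In the anterior neural ectoderm the share was 2.83% with creb3l1-N and 3.73% with creb3l2-N, and 25 of 175 secretory genes were at least 2-fold lower, against 5.03% lower and 1.73% higher among all genes. In the posterior neural ectoderm it was 2.33% with creb3l1-N and 3.27% with creb3l2-N, with 27 of 171 lower, against 5.28% lower and 1.65% higher among all genes. The presomitic and paraxial mesoderm had 2.44% with creb3l1-N and 3.18% with creb3l2-N, with 15 of 166 lower, against 4.11% lower and 1.49% higher among all genes.

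The remaining 3 classes are the ventral and lateral mesoderm, the non-neural ectoderm and the periderm. The ventral and lateral mesoderm had 2.98% with creb3l1-N and 3.45% with creb3l2-N, with 7 of 170 secretory genes at least 2-fold lower, against 3.49% lower and 1.67% higher among all genes. The non-neural ectoderm had 2.88% with creb3l1-N and 3.29% with creb3l2-N, with 8 of 174 lower, against 3.41% lower and 1.65% higher among all genes. The periderm had 2.70% with creb3l1-N and 2.94% with creb3l2-N, with 8 of 125 lower, against 2.25% lower and 1.71% higher among all genes. The shares of secretory genes that were lower in the ventral mesoderm and non-neural ectoderm were thus near the background of their class. With mCherry the 9 named classes lay between 1.03% and 1.47%.

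**Figure D4:**
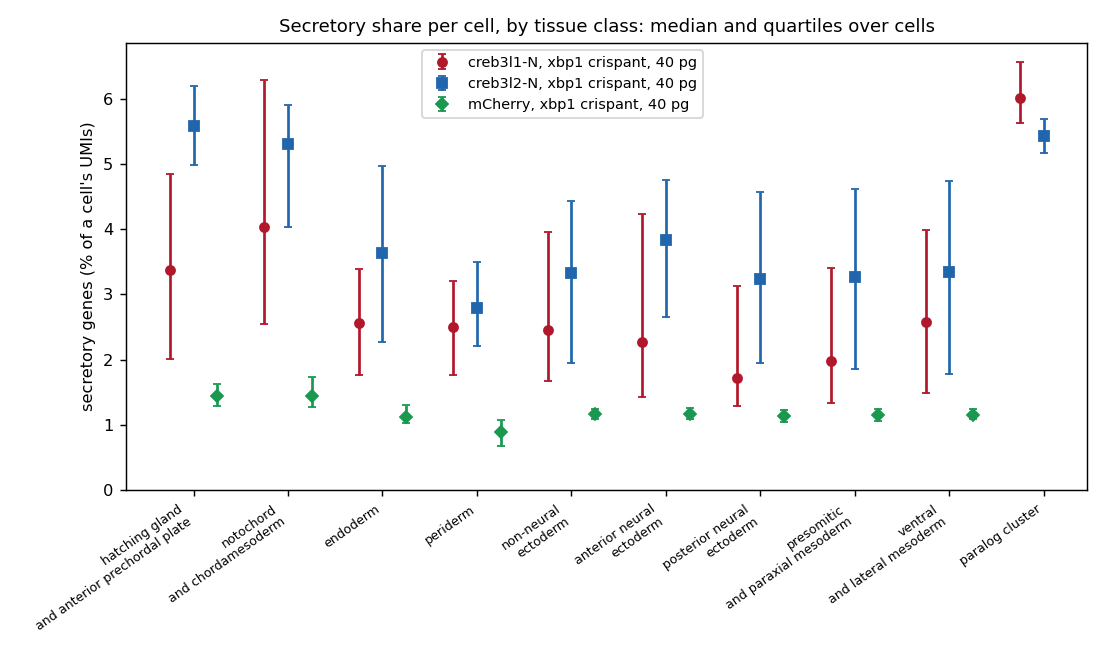
Median (points) and quartiles (bars) over cells of the share of a cell's UMIs in the 9 secretory lists, per tissue class, with creb3l1-N (red), creb3l2-N (blue) and mCherry at 40 pg (green); the paralog cluster holds no mCherry cells. The median is lower with creb3l1-N than with creb3l2-N in the 9 named classes, with quartile ranges that overlap except in the hatching gland class, and higher with creb3l1-N (6.02%) than with creb3l2-N (5.42%) in the paralog cluster.

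In each of the 9 named classes the injected transcript was found in a smaller share of cells with creb3l1-N than with creb3l2-N. In the endoderm class, 31.4% of creb3l1-N cells held creb3l1 and 71.8% of creb3l2-N cells held creb3l2, and in the periderm 32.2% and 39.3%. In the hatching gland class, 47.5% of creb3l1-N cells held creb3l1 and 85.2% of creb3l2-N cells held creb3l2. In the posterior neural class these shares were 47.3% and 79.4%, and in the notochord class 78.6% and 89.3%. The notochord class also expressed both genes without injection, with creb3l1 at 262 CPM with creb3l1-N, 55.4 CPM with creb3l2-N and 79.3 CPM with mCherry, and creb3l2 at 64.0 CPM, 608 CPM and 94.2 CPM in the same order. Among cells with at least 1 UMI of the injected transcript, the median secretory share in the non-neural ectoderm was 3.58% with creb3l1-N (143 cells) and 3.74% with creb3l2-N (338 cells). In the presomitic class such cells had 3.25% with creb3l1-N (114 cells) and 3.59% with creb3l2-N (187 cells), and in the anterior neural class 3.61% (277 cells) and 4.04% (437 cells). In the hatching gland class they had 4.42% with creb3l1-N (29 cells) and 5.625% with creb3l2-N (46 cells), in the notochord class 4.54% (143 cells) and 5.29% (134 cells), and in the endoderm class 2.71% (11 cells) and 3.59% (28 cells). Over all cells the median with the transcript was 4.39% with creb3l1-N and 4.16% with creb3l2-N, and without it 2.43% with creb3l1-N and 3.30% with creb3l2-N. Cells without it were shallower, with medians of 4614 UMIs in creb3l1-N cells and 2836 UMIs in creb3l2-N cells, against 26780 and 26270 UMIs in cells with it. How much of the class differences the transcript's level or the depth sets was not tested.

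Single genes differed within classes. In the hatching gland class, helt, a basic helix-loop-helix factor of neurons, had 116 CPM with creb3l1-N, 17.5 CPM with creb3l2-N and 0 UMIs with mCherry (ratio 6.65, 4.23 to 10.9). The apelin receptor gene aplnrb had 144 CPM with creb3l1-N, 25.9 CPM with creb3l2-N and 132 CPM with mCherry there, so that the creb3l2-N level stood apart. In the other direction adcyap1a, which encodes the neuropeptide PACAP, had 11.6 CPM with creb3l1-N, 180 CPM with creb3l2-N and 0 UMIs with mCherry in this class (ratio 0.0648, 0.0330 to 0.115). Over rich cells of all classes adcyap1a was nearly even, with 506 CPM with creb3l1-N and 441 CPM with creb3l2-N.

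In the endoderm class, cgref1 had 123 CPM with creb3l1-N, 557 CPM with creb3l2-N and 3.19 CPM with mCherry. The cargo receptor gene lman1 had 11.8 CPM with creb3l1-N, 99.1 CPM with creb3l2-N and 20.7 CPM with mCherry there. In the periderm class, col1a1a had 56.5 CPM with creb3l1-N, 9.03 CPM with creb3l2-N and 0 UMIs with mCherry. In the ventral and lateral mesoderm, hsp70.3 had 69.6 CPM with creb3l1-N, 4.03 CPM with creb3l2-N and 0.527 CPM with mCherry.

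Of the 30 genes named above for the farthest interval bounds, 13 had at least 20 UMIs over the pair in 5 or more of the 10 classes, the paralog cluster included, and 17 in 2 classes at most. Among the 13, anxa1a was at least 2-fold lower with creb3l1-N in the 9 named classes and in the paralog cluster, with 1.94 CPM with creb3l1-N and 110 CPM with creb3l2-N in the hatching gland class, and 25.99 and 188 CPM in the periderm. lgals9l3 was at least 2-fold lower in each of the 7 classes where it had at least 20 UMIs. si:ch1073-190k2.1 lay at or above 73.4 CPM with creb3l1-N in each class and at or below 1.35 CPM with creb3l2-N in all but the periderm, where it had 270.1 CPM with creb3l1-N, 140.4 CPM with creb3l2-N and 269.7 CPM with mCherry.

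ins was uneven over tissues with creb3l1-N. It had 182 CPM in the paralog cluster, 44.9 CPM in the notochord class, 21.3 CPM in the presomitic class, 13.7 CPM in the non-neural ectoderm and 1.93 CPM in the anterior neural ectoderm. The hatching gland class held 2 ins UMIs and the endoderm class 0, at 1030124 and 422366 UMIs in all.

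The paralog cluster is the largest unnamed cluster with at least 90% of its cells from the creb3l1-N and creb3l2-N libraries. It held 414 creb3l1-N cells (9.98% of the library), 225 creb3l2-N cells (4.39%), 1 cell with atf6-N and 0 of 3377 mCherry cells. The cluster was picked for holding few cells of other libraries, so their near absence from it is not a result. Its extent depended on the clustering: with approximate neighbours or another seed it held 480, 482 or 322 creb3l1-N cells and 358, 405 or 64 creb3l2-N cells. Its leading genes included the posterior patterning genes hoxa11b, hoxa4a and hoxd11a and slc32a1, the vesicular transporter of inhibitory neurons. Of the tissue markers, klf17 and foxa3 alone were 2-fold over the other cells.

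In this cluster the injected transcript stood at 836 CPM with creb3l1-N and 1403 CPM with creb3l2-N, and was present in 98.1% and 100% of cells. The secretory share was 6.099% with creb3l1-N and 5.43% with creb3l2-N, and 104 of 183 secretory ratios were above 1. Of these genes 10 were at least 2-fold higher and 2 at least 2-fold lower with creb3l1-N, against 863 (9.16%) and 742 (7.87%) of all genes. crx had 151 CPM with creb3l1-N and 6.17 CPM with creb3l2-N in this cluster, and nefmb 126 and 6.59 CPM. In the 9 named classes the share of genes at least 2-fold higher with creb3l1-N ran from 1.49% in the presomitic class to 5.08% in the hatching gland class.

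The balance of genes past 2-fold depended on which cells were summed. With all cells 59.9% of the genes past 2-fold were higher with creb3l1-N. Without the paralog cluster, 441 genes were at least 2-fold higher and 652 at least 2-fold lower, a share of 40.35% higher, and the other clusterings gave 432 to 462 higher and 575 to 682 lower. With the named classes alone, weighted equally, the share was 39.8%, and in rich cells alone it was 44.0%, with 996 genes higher and 1269 lower. At 3-fold it was 72.5%, and with the interval bound past 2-fold 70.06%. The median log2 ratio of the 9 joined secretory lists was -0.15 with all cells, -0.32 without the paralog cluster, -0.41 with classes weighted equally and 0.02 in rich cells, where the median of all genes was -0.13.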

How the data were processed

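Whole-embryo droplet libraries used 10x Genomics V3 chemistry, per the labels. The authors deposited raw UMI counts per gene and barcode, written by Cell Ranger 6.1.2 per the file headers; the build, annotation and cell-calling rule are not given in the sources used here. The submitters' processing notes name Cell Ranger. Counts of features with the same symbol were summed. Of the 8 hpf libraries 6 were used, and 4 at 12 hpf gave the background between libraries of 1 label. The other libraries of the series and promoter motifs are not analysed here.

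Barcodes with under 1000 UMIs or over 10% mitochondrial UMIs were removed. Ratios of CPM, exact binomial intervals (scipy 1.17.1) and the 50-UMI minimum were tested on simulated data. Each group has 1 library, so intervals hold counting error only. Scrublet's automatic threshold marked 0.0241% of creb3l1-N and 0% of creb3l2-N cells and had not worked, so doublets were left in, and the highest scores, at 0.8% per 1000 barcodes, were removed in an alternative. Cells were clustered in scanpy with genes centred within each library, 2000 variable genes, 40 principal components, 15 exact neighbours and Leiden resolution 1. Left out were 4078 genes, among them 3631 past 2-fold between any of creb3l1-N, creb3l2-N and mCherry, and 21 markers. The partition changed with numerical detail, so components and weights were rounded, a choice made for repeatability after earlier partitions had been seen. The periderm class is mostly a cluster with a median of 1815 UMIs.

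Named genes are the injected ones, xbp1 and atf6, the 15 in each direction with the interval bound farthest from 1, the 5 per tissue class, list members past 2-fold and the 3 with most UMIs, and the genes of the 12 hpf lists. The comparison, lists and rules were chosen with earlier results of these data known. The naming rule of clusters, the contrast of rich cells, the split by injected transcript, the paralog cluster and the alternatives without it, in rich cells, without the injected genes in the totals and with other clusterings were chosen after seeing the data. Other alternatives were the barcode filters, scaling (edgeR TMM, DESeq2 size factors), UMI minimum, fold, doublets and class weights.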

Additional observations from a re-analysis of the deposited data

Results flagged for a closer look

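The secretory share of UMIs differed in direction between cell classes. It was lower with creb3l1-N than with creb3l2-N in the 9 named classes, and in the paralog cluster it was higher with creb3l1-N, by 0.669 percentage points (6.099% with creb3l1-N and 5.43% with creb3l2-N). The difference between classes was not tested, since each paralog has 1 library. The paralog cluster held 76.7% of the creb3l1-rich and 30.5% of the creb3l2-rich cells, so the named classes lack them to unlike extents. How far this sets the sign in the named classes was not tested. Over all cells with the injected transcript the median share was 4.39% with creb3l1-N and 4.16% with creb3l2-N. A signal also appeared outside the comparison: clstn3 stood at 497 CPM in the atf6-N library, against 0.0327 CPM with mCherry.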

How the results depend on the processing

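No paired analysis was possible because each paralog has 1 library. The counts of 764 genes at least 2-fold higher and 511 at least 2-fold lower with creb3l1-N stayed within 1.5 times under the 3 barcode filters, both scalings, doublet removal, the mean of per-cell CPM and totals without the injected genes. They moved to 1155 higher and 783 lower with a 20-UMI minimum, 388 and 281 with 200 UMIs, 2720 and 1610 with no minimum and 1 count added, 343 and 130 at 3-fold, 1693 and 1564 at 1.5-fold (52.0% higher), and 433 and 185 with the interval bound past 2-fold. Equal class weights gave 1081 lower, rich cells 1269 lower and the sum without the paralog cluster 441 higher. The joined secretory median of -0.15 moved to -0.41, 0.021 and -0.32 under those 3 choices, and turned positive in rich cells. With a 20-UMI minimum the genes past 2-fold in a class numbered 1264 in the hatching gland, 1005 in the notochord, 718 in the endoderm, 548 in the periderm, 892 in the non-neural, 1178 in the anterior neural and 1099 in the posterior neural ectoderm, 899 in the presomitic and 868 in the ventral mesoderm. With cells picked by their highest marker score the endoderm had 933 and the periderm 244. The causes of these moves were not tested.

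The clustering changed class membership but not the sign of the secretory difference (creb3l1-N minus creb3l2-N, percentage points) in the 8 named classes common to it, the approximate neighbours and 2 other seeds. Over these alternatives the difference was -2.364 to -2.341 in the hatching gland, -0.304 to -0.101 in the periderm, and 0.610 to 0.779 in the paralog cluster. The ventral and lateral mesoderm took its name in the main clustering alone. Single log2 ratios were recomputed for creb3l1, creb3l2, xbp1, atf6 and the genes with the farthest interval bounds. Of these, 407 values kept within the counting interval over the alternatives and 69 moved. Lists were recomputed as medians only, of which 211 values were counted as the same and 55 as moved. A count of 0 allows up to 0.0406 CPM with creb3l1-N and 0.0309 CPM with creb3l2-N; small classes and clone-named genes are limited by counts.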
